A study of Mus musculus with 8 samples.

Results

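The genes described here are 42 genes of skeletal muscle that encode the contractile filaments, the scaffold that holds them, the calcium store that triggers contraction and the enzymes that fuel it. They were chosen by name, with earlier results of these data known. All 42 were measured, out of 22180 genes that the array annotation links to a feature of exactly 1 symbol. A feature is a group of probes summarised as 1 value. Myh8, Xirp2, Tpm3, Ckm and Ryr1 have several such features and are shown by the brightest on average. Of the 42 genes, 13 encode proteins typical of fast fibres and 9 encode proteins typical of slow fibres.

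The tissue was whole mouse cochlea with its bony capsule at postnatal day 16. Both cochleae of an animal were combined into 1 sample, so that each array is 1 animal. One group comprised 4 miR-183/96 knockout mice, animals targeted at a pair of microRNA genes that lie in 1 cluster with miR-182 and are used in sensory cells. The other comprised 4 mice whose genotype is labelled control and which the series' design calls wild type. Not given in the sources used here were the strain, the sex, the construction of the allele and how muscle was trimmed from the capsule.

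Skeletal muscle shortens when myosin thick filaments pull on actin thin filaments inside repeating units, the sarcomeres, which are bounded by Z-discs. Calcium released from the sarcoplasmic reticulum binds troponin, moves tropomyosin and exposes actin to myosin. Fast and slow fibres build this machine from parallel sets of proteins encoded by different genes, so that their transcripts tell the fibre types apart. The middle ear next to the cochlea holds small skeletal muscles, the tensor tympani and the stapedius, whereas the cochlea itself has no skeletal muscle fibres. A few of the genes are not restricted to muscle: Tpm1, Tpm2 and Tpm3 are used by many cell types, and Xirp2 and Smpx are known in hair cells too.

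Cochlear transcripts marked every sample. Coch, an abundant matrix protein of the inner ear, read 9.99 to 10.62 in knockout and 10.58 to 10.75 in control cochlea on the log2 scale. Pairs of arrays had correlations of 0.947 to 0.976, and array medians lay between 5.10 and 5.28. Mir96, 1 of the targeted genes, fell by 1.48 (SE 0.17, limma adjusted p = 0.00932), with no overlap between groups. The call was lost with all features of the table and when control replicate 1 was left out, and Mir183, the other targeted gene, differed by -0.33 with overlap (adjusted p = 0.398). These values and those of the muscle genes come from 1 fit over 23521 features, in which 3 features (0.0128%) passed an adjusted p of 0.05. No detection call was used, so a dim feature cannot be told from background. The number of arrays limits the precision.

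In 2 arrays the muscle genes stood apart. Control replicate 2 was the highest of the 8 arrays at 34 of the 42 genes, against 12.6% of all features. Knockout replicate 1 was the lowest at 23 of the 42, against 9.45% of all features. Averaged over the 42 genes, the level was 5.41, 6.02, 5.88 and 6.05 in knockout replicates 1 to 4 and 5.94, 7.16, 6.21 and 5.93 in control replicates 1 to 4. Control replicate 2 thus lay far above the other 3 controls, and knockout replicate 1 below the other 3 knockouts, while the remaining 6 arrays lay close together. Values without both arrays are given beside the results that change most. Both were picked because they were extreme in opposite groups, so leaving them out makes a negative difference smaller by construction.

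None of the 42 genes passed the test between knockout and control. The smallest limma adjusted p was 0.291, at Tpm2. The differences, always knockout minus control on the log2 scale, were negative at 33 of the 42 genes, against 47.6% of all features. After each array was centred on its median they were negative at 39, against 63.2% of all features. At an unadjusted p under 0.05 there were 11 genes with a lower level in knockout and 0 with a higher one, against 7.25% and 7.04% of all features. The median difference was -0.49, against 0.014 over all features. Because the genes varied together between arrays, these counts do not stand for 42 separate observations. Without both extreme arrays 22 of 42 were negative, against 49.0% of all features, the median was -0.0052 and 1 gene, Tpm2, had an unadjusted p under 0.05, against 7.00% of all features. No gene of the set passed the limma test then either, against 0.00850% of all features. In whole tissue, fewer cells of a type and less RNA per cell cannot be told apart.

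The spread between animals was wide for these genes. The range over the 8 arrays exceeded 2 log2 units at 54 of the 23521 features, and 19 of these 54 were genes of the muscle set. The median range was 1.79 over the 42 genes, 3.07 over the fast isoforms and 0.47 over the slow isoforms, against 0.59 over all features. At 33 of the 42 genes, and at 13 of the 13 fast isoforms, control replicate 2 lay further above the mean of the other 3 controls than the groups lay apart.

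**Figure D1:**
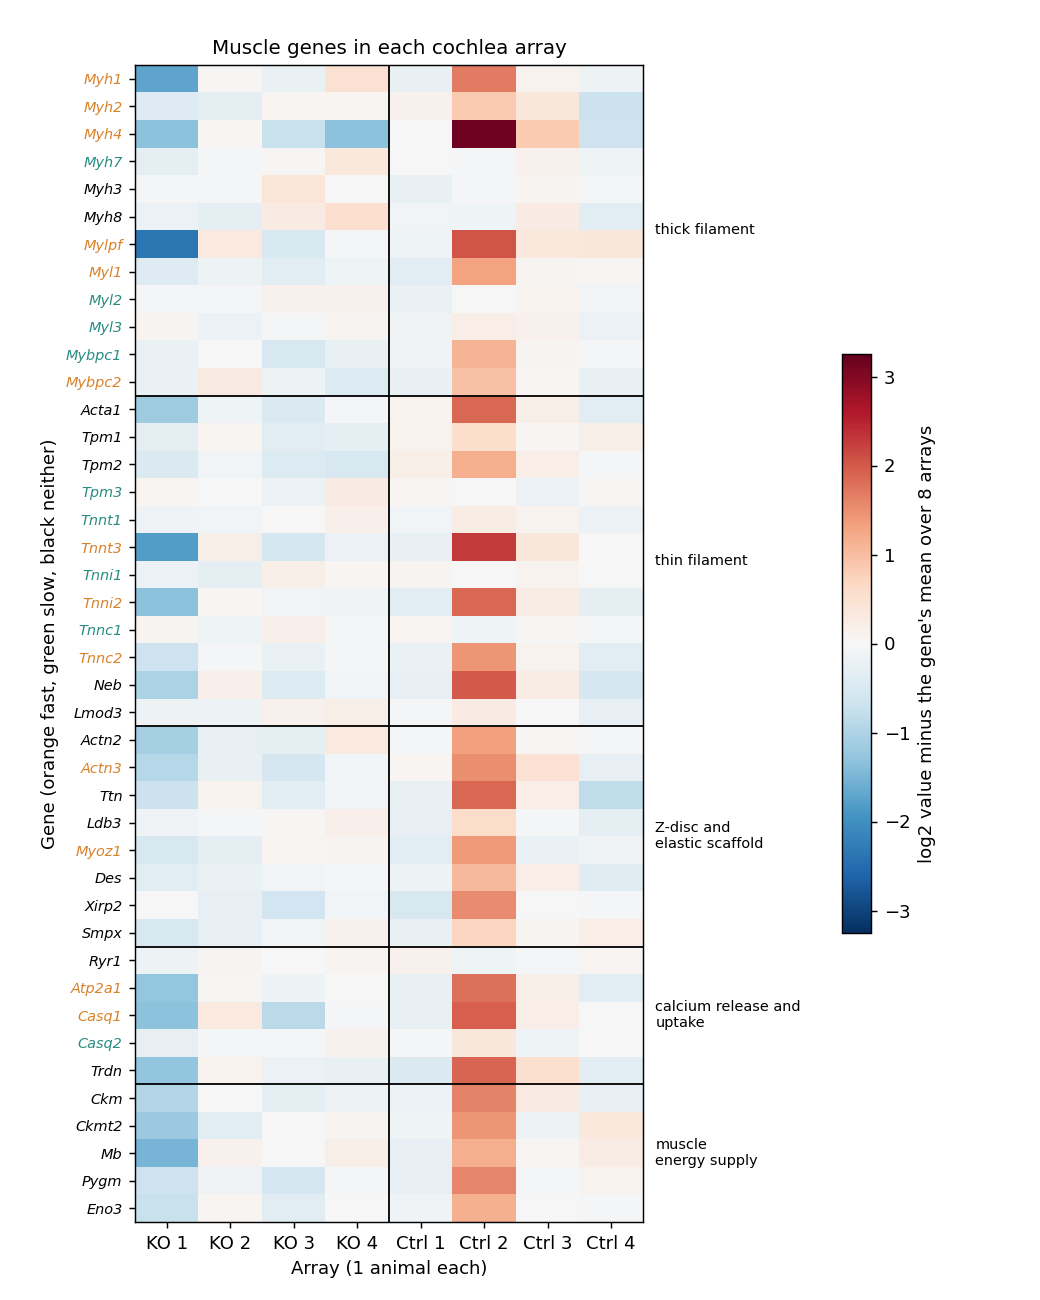
Values of the 42 genes (rows) in the 8 arrays (columns), as log2 units from each gene's mean over the 8 arrays; red is above and blue below that mean. The column of control replicate 2 is the highest of the 8 at 34 of the 42 genes, and that of knockout replicate 1 is the lowest at 23.

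Stretches of RefSeq promoter sequence are shown for a fast isoform that ranged widely between arrays, for its fast light chain partner and for a slow isoform that hardly moved, since muscle promoters are known to be bound by MyoD family factors at E-boxes and by MEF2 factors. Each runs 5′ to 3′ from 250 bases before to 50 bases after the annotated start, in assembly GRCm38.p6. Capitals mark matches to the E-box CANNTG, which reads the same on both strands, and, in Myh4, to the MEF2 box, searched on both strands.
Myh4, chr11:67237562-67237861, plus strand: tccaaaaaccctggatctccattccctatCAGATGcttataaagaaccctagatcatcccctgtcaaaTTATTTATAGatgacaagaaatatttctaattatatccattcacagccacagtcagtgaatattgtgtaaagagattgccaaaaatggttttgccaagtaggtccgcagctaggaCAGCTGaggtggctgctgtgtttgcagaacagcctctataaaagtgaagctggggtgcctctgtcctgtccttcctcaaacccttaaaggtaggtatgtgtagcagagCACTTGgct
Mylpf, chr7:127211358-127211657, plus strand: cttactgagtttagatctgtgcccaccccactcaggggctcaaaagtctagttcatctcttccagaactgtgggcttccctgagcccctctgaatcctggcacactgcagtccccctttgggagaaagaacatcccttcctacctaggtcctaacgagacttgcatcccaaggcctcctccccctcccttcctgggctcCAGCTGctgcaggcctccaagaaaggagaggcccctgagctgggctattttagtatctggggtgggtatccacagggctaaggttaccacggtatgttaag
Tnnt1, chr7:4515926-4516225, minus strand: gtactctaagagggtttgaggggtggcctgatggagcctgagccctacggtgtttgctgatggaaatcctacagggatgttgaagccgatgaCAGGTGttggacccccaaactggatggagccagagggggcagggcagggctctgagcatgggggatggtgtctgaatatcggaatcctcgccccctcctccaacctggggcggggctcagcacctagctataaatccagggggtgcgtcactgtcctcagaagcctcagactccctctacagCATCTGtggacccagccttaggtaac
In the Myh4 window, E-boxes began 221 and 67 bases before the start and 42 bases after it, the MEF2 box began 182 bases before it, and a CArG box, the site of serum response factor, began 104 bases before it. TATAAA lay 213 and 31 bases before the start. The Mylpf window held 1 E-box, 51 bases before the start. The Tnnt1 window held E-boxes 158 bases before and 25 bases after the start and TATAAA 30 bases before it.

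Promoter windows were at hand for 35 of the 42 genes. An E-box was present in 30 of the 35 (85.7%), against 75% of 27025 genes with a window. It was present in 9 of 9 slow isoforms and in 7 of 9 fast ones. The MEF2 box was present in 6 of 35 (17.1%), namely Casq2, Myh1, Myh4, Myh8, Ttn and Xirp2, against 3.7% of all windows. The CArG box was present in 4 of 35 (11.4%), namely Acta1, Ldb3, Myh4 and Myl3, against 1.81%. TATAAA, searched on the gene's own strand, was present in 6 of 35 (17.1%), against 9.77%. The MEF2 and CArG boxes overlap in their run of A and T, and a match is a run of letters, not evidence of binding. Myh4 alone among the 35 held the MEF2 box, the CArG box and TATAAA.

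Among the thick filament genes, Myh4, Mylpf and Myh1 had the widest ranges. Myh4, the heavy chain of the fastest fibres (type IIB), read 5.10, 6.48, 5.70 and 5.09 in knockout replicates 1 to 4 and 6.42, 9.59, 7.28 and 5.75 in control replicates 1 to 4. Control replicate 2 was 8.65-fold above the mean of the other 3 controls, and the groups overlapped because control replicates 1 and 4 read below knockout replicate 2. The difference was -1.67 (SE 0.61, limma adjusted p = 0.305), and -0.73 without both extreme arrays. Mylpf, the fast regulatory light chain, read 4.32, 7.01, 6.20 and 6.62 in knockout replicates 1 to 4 and 6.54, 8.73, 7.03 and 7.06 in control replicates 1 to 4. Here knockout replicate 1 lay far below every other array, and the rest of the knockouts overlapped with the controls. The difference was -1.30 (SE 0.52, limma adjusted p = 0.308), and -0.27 without both arrays.

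Myh1, the heavy chain of type IIX fibres, read 4.66, 6.41, 6.15 and 6.87 in knockout replicates 1 to 4 and 6.15, 8.06, 6.49 and 6.21 in control replicates 1 to 4. Its difference of -0.70 (limma adjusted p = 0.457) turned to 0.20 without both extreme arrays. Myh2, the heavy chain of type IIA fibres, differed by -0.31 (adjusted p = 0.546), and by -0.0011 without both arrays. Myl1, the fast essential light chain, differed by -0.55 (adjusted p = 0.352) and by -0.15 without both, with control replicate 2 at 8.86 and the other 7 arrays between 7.14 and 7.65. Mybpc2, fast myosin-binding protein C, differed by -0.26, and by 0.046 without both arrays.

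Most slow and developmental thick filament genes ranged less over the arrays than the fast ones. Myl2 and Myl3 ranged by 0.37 and 0.42, below the median of 0.59 over all features. Myh7, Myh3 and Myh8 ranged by 0.68, 0.65 and 0.90, above it. Myh7, the heavy chain of slow fibres, read 4.81, 5.09, 5.19 and 5.49 in knockout replicates 1 to 4 and 5.15, 5.10, 5.29 and 5.01 in control replicates 1 to 4. Control replicate 2 was not raised, and the difference was 0.0091 (SE 0.14, limma adjusted p = 0.979). Myl2 and Myl3, the slow light chains, differed by 0.091 and -0.031 (adjusted p = 0.712 and 0.921). Mybpc1, slow myosin-binding protein C, was the exception: control replicate 2 read 7.06 and the other 7 arrays 5.42 to 6.04, with a difference of -0.51 (adjusted p = 0.337) that was -0.23 without both arrays. Myh3, the embryonic heavy chain, differed by 0.15 and Myh8, the perinatal heavy chain, by 0.16 (adjusted p = 0.606 and 0.683). Of the 12 thick filament genes, 8 were lower in knockout, 3 of them at an unadjusted p under 0.05, and the median was -0.29. With both extreme arrays left out 5 of 12 were lower, 0 at an unadjusted p under 0.05, and the median was 0.027.

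The skeletal myosin heavy chain genes lie side by side on chromosome 11 in the order Myh3, Myh2, Myh1, Myh4, Myh8 and Myh13. Their ranges over the 8 arrays, in log2 units, were 0.65, 1.55, 3.40, 4.51, 0.90 and 1.14 in that order. The other, dimmer Myh8 feature ranged by 0.41 and differed by 0.040. The widest ranges of the 6 were at the adjacent adult fast genes Myh1 and Myh4. The adult fast gene Myh2 and Myh13 came next, and the developmental genes Myh3 and Myh8 ranged by less than 1 unit. Myh13 encodes a myosin of eye muscles. These genes are close in sequence, and how far their probes pick up each other's transcripts was not tested.

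**Figure D2:**
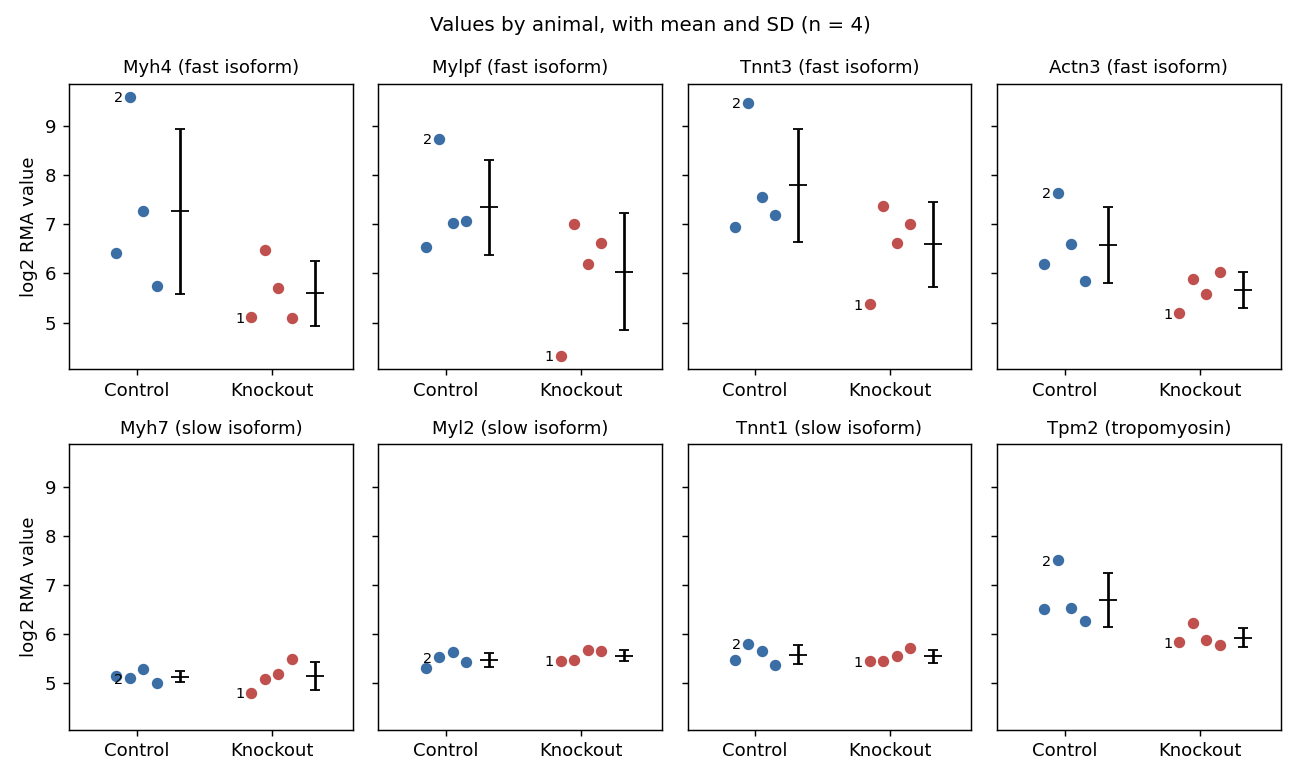
Log2 values of 8 muscle genes in the 4 control and 4 knockout animals, 1 panel per gene; points are animals, black bars are group means ± SD (n = 4), and the digits beside points mark control replicate 2 and knockout replicate 1. At Myh4, Mylpf, Tnnt3 and Actn3 control replicate 2 sits at 9.59, 8.73, 9.46 and 7.64, above every other array. At Myh7, Myl2 and Tnnt1 the 8 animals range over 0.68, 0.37 and 0.43 log2 units, against a median of 0.59 over all features.

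The thin filament genes showed the same split. Acta1, skeletal alpha-actin, read 7.0, 8.0, 7.67 and 8.11 in knockout replicates 1 to 4 and 8.27, 10.02, 8.35 and 7.79 in control replicates 1 to 4. Control replicate 2 was 3.7-fold above the other controls, and control replicate 4 read below knockout replicates 2 and 4. The difference was -0.91 (SE 0.37, limma adjusted p = 0.317), and -0.21 without both extreme arrays. Tnnt3, fast troponin T, which ties troponin to tropomyosin, read 5.37, 7.37, 6.62 and 6.99 in knockout replicates 1 to 4 and 6.95, 9.46, 7.55 and 7.20 in control replicates 1 to 4. Knockout replicate 2 lay above control replicates 1 and 4, so the groups overlapped, and the difference was -1.20 (SE 0.48, limma adjusted p = 0.313). Without both arrays it was -0.24. Tnni2, the fast inhibitory subunit, and Tnnc2, the fast calcium sensor, differed by -0.74 (adjusted p = 0.419) and -0.50 (adjusted p = 0.439), and by 0.087 and 0.038 without both arrays.

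The slow troponins differed little. Tnnt1, slow troponin T, read 5.45, 5.46, 5.55 and 5.72 in knockout replicates 1 to 4 and 5.47, 5.80, 5.66 and 5.37 in control replicates 1 to 4, a narrow band in which control replicate 2 was the highest by a small margin. The differences were -0.031 at Tnnt1, -0.11 at Tnni1 and 0.041 at Tnnc1, which is shared with the heart (limma adjusted p = 0.917, 0.672 and 0.87). Tpm3, the tropomyosin of slow fibres and of many other cells, differed by 0.069. Its other, dimmer feature differed by 0.17 and was highest in control replicate 2, at 5.41, next to control replicate 3 at 5.40. Neb, nebulin, the ruler along the thin filament, read 7.78 in control replicate 2, and its difference of -0.70 (adjusted p = 0.441) was 0.069 without both arrays. Lmod3, which starts new thin filaments, differed by 0.0098. Of the 12 thin filament genes, 9 were lower, 4 at an unadjusted p under 0.05, with a median of -0.48. With both extreme arrays left out 6 of 12 were lower, 1 at an unadjusted p under 0.05, and the median was 0.0092.

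Tropomyosins 1 and 2 had the smallest p of the set. Tpm2, beta-tropomyosin, read 5.84, 6.22, 5.87 and 5.78 in knockout replicates 1 to 4 and 6.51, 7.50, 6.53 and 6.26 in control replicates 1 to 4. It was the only gene of the 42 whose groups did not overlap, which was so for 2.65% of all features in that direction; none was higher without overlap, against 3.30%. The difference was -0.77 (SE 0.22, limma adjusted p = 0.291), and -0.48 without both extreme arrays. Tpm1, alpha-tropomyosin, read 6.96, 7.32, 6.89 and 6.95 in knockout replicates 1 to 4 and 7.38, 7.83, 7.30 and 7.45 in control replicates 1 to 4. Only knockout replicate 2 reached into the control range, and the difference was -0.46 (SE 0.14, limma adjusted p = 0.296), with -0.32 without both arrays. Both are also used outside muscle, and neither passed the threshold.

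At the Z-disc and in the elastic scaffold, control replicate 2 was the highest array at 8 of 8 genes. Actn3, the alpha-actinin of fast fibres, read 5.19, 5.88, 5.57 and 6.02 in knockout replicates 1 to 4 and 6.19, 7.64, 6.59 and 5.85 in control replicates 1 to 4. Control replicate 4 lay among the knockouts, and the difference was -0.90 (SE 0.30, limma adjusted p = 0.301), or -0.39 without both extreme arrays. Actn2, the alpha-actinin of all fibres, differed by -0.67 (adjusted p = 0.351), by -0.33 without control replicate 2 and by -0.078 without both. Ttn, titin, the molecular spring, read 7.73 in control replicate 2, and its difference of -0.52 was 0.16 without both arrays. Myoz1, a calcineurin-binding Z-disc protein of fast fibres, read 6.84 in control replicate 2 and 4.93 to 5.55 elsewhere, and its difference of -0.35 was 0.17 without both arrays. Des, desmin, differed by -0.37, Smpx by -0.36 and Ldb3, a PDZ and LIM domain protein, by 0.027. Without both arrays these were -0.0093, -0.081 and 0.27. Xirp2 differed by -0.48, by -0.14 without both arrays, and by 0.20 at its dimmer feature, which is the opposite sign. In this group 7 of 8 were lower, 1 at an unadjusted p under 0.05, and the median was -0.42. With both extreme arrays left out 5 of 8 were lower, 0 at an unadjusted p under 0.05, and the median was -0.044.

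The genes of calcium handling were lowest in knockout replicate 1 at 5 of 5. Casq1, fast calsequestrin, which stores calcium in the reticulum, read 5.41, 7.04, 5.87 and 6.69 in knockout replicates 1 to 4 and 6.50, 8.69, 6.96 and 6.74 in control replicates 1 to 4. Knockout replicate 2 lay above 3 of the 4 controls, so the groups overlapped, and the difference was -0.97 (SE 0.42, limma adjusted p = 0.332), or -0.20 without both extreme arrays. Atp2a1, the calcium pump of fast fibres, read 5.45, 6.75, 6.54 and 6.70 in knockout replicates 1 to 4 and 6.49, 8.52, 6.92 and 6.38 in control replicates 1 to 4, and its difference of -0.72 (adjusted p = 0.415) was 0.069 without both arrays. Trdn, triadin, which links calsequestrin to the release channel, differed by -0.80 (adjusted p = 0.393), and by -0.012 without both. Casq2, the slow and cardiac calsequestrin, differed by -0.094, and by 0.089 without both. Ryr1, the release channel, differed by 0.0018. Its other, dimmer feature read 6.22 in control replicate 2 and 5.09 to 5.48 in the other arrays, so the gene's features disagreed about that array. The median over the 5 genes was -0.72, with 4 lower and 1 at an unadjusted p under 0.05. With both extreme arrays left out 2 of 5 were lower, 0 at an unadjusted p under 0.05, and the median was 0.015.

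The energy genes varied together. At the features shown, all 5 were highest in control replicate 2 and lowest in knockout replicate 1. A second, dimmer Ckm feature was highest in control replicate 3 and lowest in knockout replicate 2, with a difference of -0.18. Ckm, the cytosolic creatine kinase that regenerates ATP, read 5.99, 6.96, 6.64 and 6.80 in knockout replicates 1 to 4 and 6.77, 8.57, 7.24 and 6.68 in control replicates 1 to 4. The difference was -0.72 (SE 0.33, limma adjusted p = 0.351), and -0.10 without both extreme arrays. Mb, myoglobin, which stores oxygen and is most abundant in oxidative fibres, read 5.57, 7.23, 7.09 and 7.28 in knockout replicates 1 to 4 and 6.82, 8.28, 7.15 and 7.33 in control replicates 1 to 4. Its difference of -0.60 (adjusted p = 0.431) was 0.10 without both arrays. Ckmt2, mitochondrial creatine kinase, differed by -0.73 (adjusted p = 0.342), Pygm, which breaks down glycogen, by -0.69 (adjusted p = 0.341), and Eno3, the enolase of muscle, by -0.49 (adjusted p = 0.385). Without both arrays these were -0.10, -0.17 and -0.027. Of the 5, 2 had an unadjusted p under 0.05, and the median was -0.69, or -0.10 without both arrays.

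**Figure D3:**
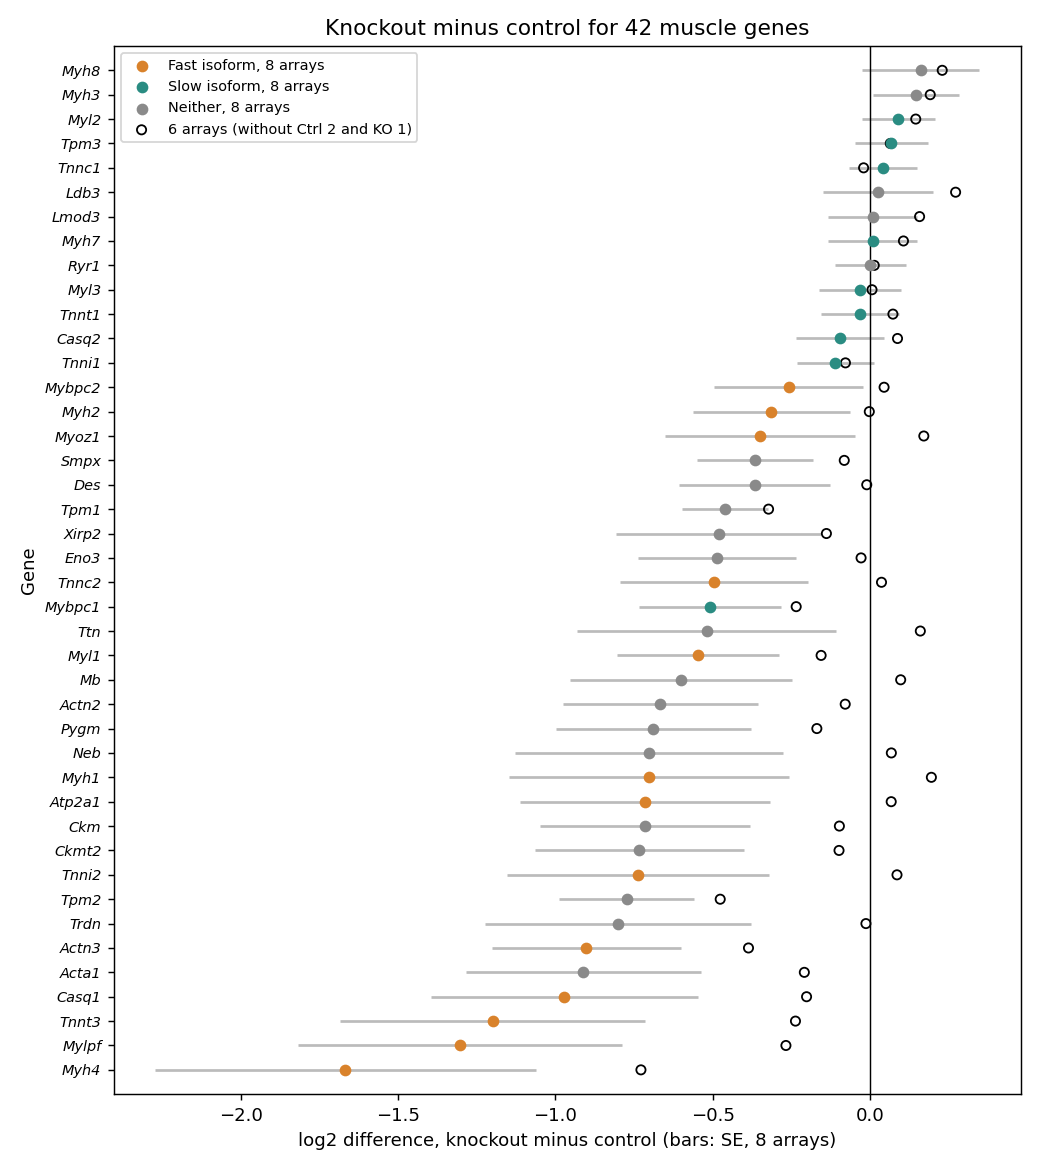
Knockout minus control difference (log2) of each of the 42 genes, sorted by size and coloured by fibre type; filled points with bars are limma estimates ± SE over 8 arrays, and open circles are the estimates without control replicate 2 and knockout replicate 1. The filled points are negative at 33 genes and the open circles at 22.

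Fast and slow isoforms were then compared. All 13 fast isoforms were lower in knockout, 5 at an unadjusted p under 0.05, with differences from -1.67 to -0.26 and a median of -0.72. Of the 9 slow isoforms, 5 were lower and 4 higher (8 and 1 after median-centring, 6 and 3 after cyclic loess), 1 at an unadjusted p under 0.05, with differences from -0.51 to 0.091 and a median of -0.031. The mean level of the fast isoforms was 5.44, 6.56, 6.21 and 6.40 in knockout replicates 1 to 4 and 6.36, 8.25, 6.79 and 6.33 in control replicates 1 to 4, or 6.15 ± 0.50 against 6.94 ± 0.90 (SD, n = 4). That of the slow isoforms was 5.62, 5.63, 5.70 and 5.83 in knockout and 5.69, 5.93, 5.77 and 5.64 in control, or 5.70 ± 0.10 against 5.76 ± 0.12. The groups overlapped on both scores. Without both extreme arrays the fast median was -0.0011, with 7 of 13 lower, and the slow median 0.066.

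At 13 of 13 fast isoforms control replicate 2 was the highest array, as it was at 4 of 9 slow ones, and knockout replicate 1 was the lowest at 10 of 13 and 2 of 9. Control replicate 3 was second highest at 8 of the 13 fast isoforms. Control replicate 2 lay a median of 1.78 log2 units above the other 3 controls at the fast isoforms and 0.075 at the slow ones. Some slow features were dim, with means over the 8 arrays of 4.59 at Casq2, 4.97 at Myl3 and 5.14 at Myh7. Others were brighter, such as Tnnc1 at 6.53 and the Tpm3 feature shown, at 7.28. The other Tpm3 feature was dim, at 5.14, and was highest in control replicate 2. The fast Mybpc2 was dim too, at 5.07. Whether background kept the dim slow features level was not tested.

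For 8 proteins a fast and a slow paralog form a pair, and the fast over slow log2 ratio within each array was compared between groups with a two-sided exact permutation test, whose smallest possible p is 0.0286. No pair passed after Benjamini-Hochberg adjustment over the 8 pairs. For the heavy chains, Myh4 over Myh7, the ratio was 0.29, 1.39, 0.51 and -0.41 in knockout replicates 1 to 4 and 1.27, 4.50, 1.99 and 0.74 in control replicates 1 to 4, a difference of -1.68 (exact permutation p = 0.0857, adjusted p = 0.229). For troponin T, Tnnt3 over Tnnt1, it was -0.08, 1.91, 1.07 and 1.27 in knockout and 1.48, 3.66, 1.88 and 1.83 in control, a difference of -1.17 (exact permutation p = 0.114, adjusted p = 0.229). In both, 1 control lay far above the others and the groups overlapped.

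The ratio was also lower in knockout for the regulatory light chains, at -1.39 (exact permutation p = 0.0857, adjusted p = 0.229), and for the calsequestrins, at -0.88 (exact permutation p = 0.143, adjusted p = 0.229). Differences were smaller for the essential light chains, at -0.52 (exact permutation p = 0.143, adjusted p = 0.229), for troponin C, at -0.54 (exact permutation p = 0.343, adjusted p = 0.392), and for troponin I, at -0.63 (exact permutation p = 0.457, adjusted p = 0.457). Myosin-binding protein C went the other way, at 0.25 (exact permutation p = 0.2, adjusted p = 0.267), and its slow paralog Mybpc1 also read highest in control replicate 2. The highest ratio was in control replicate 2 in 7 of the 8 pairs and the lowest in knockout replicate 1 in 6. Without both arrays the heavy chain ratio differed by -0.84 and the troponin T ratio by -0.31, while those of troponin I and troponin C turned to 0.16 and 0.057. For the regulatory light chains it was -0.41, for the calsequestrins -0.29, for the essential light chains -0.16 and for myosin-binding protein C 0.28. A ratio of features compares the values of 2 paralogs and does not show that either stayed level. With no pair passing, unequal change between paralogs was not established. Some slow features were dim, and how far background shaped the ratios was not tested.

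**Figure D4:**
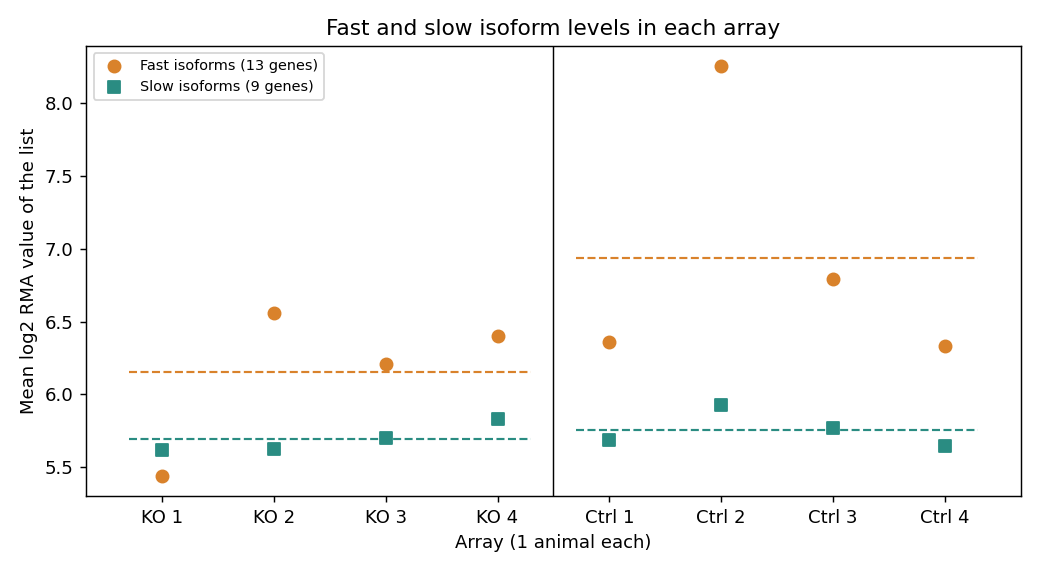
Mean log2 level of the 13 fast isoforms and of the 9 slow isoforms in each animal, with dashed lines at the group means; levels are to be compared between arrays within a list, not between lists. The fast mean runs from 5.44 in knockout replicate 1 to 8.25 in control replicate 2, and the slow mean from 5.62 to 5.93 over the 8 arrays.

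Other genes of muscle, from lists that hold no gene of the set, were also read. Of 87 such genes 80 were measured, and 49 were lower and 31 higher in knockout, against 47.6% of all features lower. At an unadjusted p under 0.05 there were 5 in each direction, against 7.25% lower and 7.04% higher of all features, and 0 were called by limma after adjustment. The groups did not overlap at 1 lower gene, Sgcb, and at 3 higher ones, Myoz3, Jsrp1 and Pax3. Over all features these shares were 2.65% and 3.30%. The median was -0.031. Without both extreme arrays 33 of 80 were lower and the median was 0.036. The highest array was control replicate 2 at 42 of the 80, against 12.6% of all features, and the lowest was knockout replicate 1 at 18. Among 27 further sarcomere genes, 15 were lower and 12 higher. Pvalb, parvalbumin, the calcium buffer of fast fibres, differed by -0.96 (SE 0.34, limma adjusted p = 0.303), with control replicate 2 the highest and knockout replicate 1 the lowest. Myoz3, a Z-disc protein, Trim63, a ubiquitin ligase of muscle wasting, and Mylk4, a myosin kinase, were higher, at 0.34, 0.34 and 0.29 (adjusted p = 0.301, 0.305 and 0.335). The list's median was -0.027, and control replicate 2 was the highest array at 14 of 27.

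Of 14 further excitation-contraction genes 9 were lower, with a median of -0.064; Atp2a2, the calcium pump of slow fibres and of most other cells, differed by -0.29 (adjusted p = 0.343) and Jsrp1, a protein of the reticulum junction, by 0.27. Of 14 further energy genes 11 were lower, with a median of -0.21, and control replicate 2 was the highest array at 10. Phka1, a regulator of glycogen breakdown, differed by -0.30 and Adssl1, an enzyme of the purine cycle, by -0.28 (adjusted p = 0.312 and 0.35). Of 7 genes of the fibre membrane 6 were lower, with a median of -0.066. Sgcb, beta-sarcoglycan, which smooth muscle uses too, differed by -0.46 (SE 0.14, limma adjusted p = 0.301) with no overlap between groups, and Dysf, dysferlin, by 0.24.

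Of 9 neuromuscular junction genes 3 were lower and 6 higher, with a median of 0.014. Chrng and Chrne, the fetal and adult acetylcholine receptor subunits, differed by 0.35 and 0.21 (adjusted p = 0.305 and 0.506), and control replicate 2 was the highest array at 1 of 9. Of 9 satellite cell and myogenic factor genes 5 were lower, with a median of -0.0086. Pax3, a factor of muscle precursors, differed by 0.37, and Mef2c, which is also used outside muscle, by -0.30 (adjusted p = 0.301 and 0.416). Control replicate 2 was the highest at 5 of 9.

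Markers of other cell types were read in the same arrays. The mean over 5 tendon markers, which muscle attachments carry, was 5.57, 6.10, 5.47 and 5.60 in control replicates 1 to 4 and 5.44 to 5.63 in knockout, and control replicate 2 was the highest array at 5 of 5. Between groups 3 of the 5 were lower, with a median of -0.20; Mkx differed by -0.37 and Tnmd by -0.20. Tendon markers therefore moved with the muscle genes in that array, and their part in the result was not tested. The mean over 10 cardiac muscle markers was 5.26 to 5.55 in knockout and 5.27 to 5.43 in control, with 2 lower, a median of 0.12 and control replicate 2 the highest at 1 of 10. Nppa and Myh6, both of heart muscle, differed by 0.36 and 0.29 (adjusted p = 0.306 and 0.343).

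The mean over 9 smooth muscle markers was 5.76 to 5.98 in knockout and 5.81 to 5.90 in control, with 4 lower, a median of 0.024 and control replicate 2 the highest at 2 of 9; Acta2 and Cnn1 differed by -0.20 and 0.20. The mean over 5 adipocyte markers was 5.12 to 5.33 in knockout and 4.93 to 5.21 in control, with 0 lower, a median of 0.15 and control replicate 2 the highest at 0; Plin1 and Cidec differed by 0.20 and 0.23. The mean over 6 hair cell markers was 5.19 to 5.39 in knockout and 5.31 to 5.46 in control, with 4 lower and a median of -0.035. Myo6, the myosin of the hair cell body, differed by -0.53 (SE 0.18, limma adjusted p = 0.301), and Pou4f3, the hair cell factor, by -0.10 (adjusted p = 0.647). The groups did not overlap at Pou4f3, which was so for 2.65% of all features in that direction. The mean over 8 other cochlear markers was 7.42 to 7.82 in knockout and 7.72 to 7.89 in control, with 6 lower and a median of -0.21; Coch and Kcne1 differed by -0.35 and -0.28 (adjusted p = 0.305 and 0.35). Neither cochlear list had a gene at which control replicate 2 was highest or knockout replicate 1 lowest. No marker list reached 0 on this scale, and which of these markers lie at background was not tested.

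**Figure D5:**
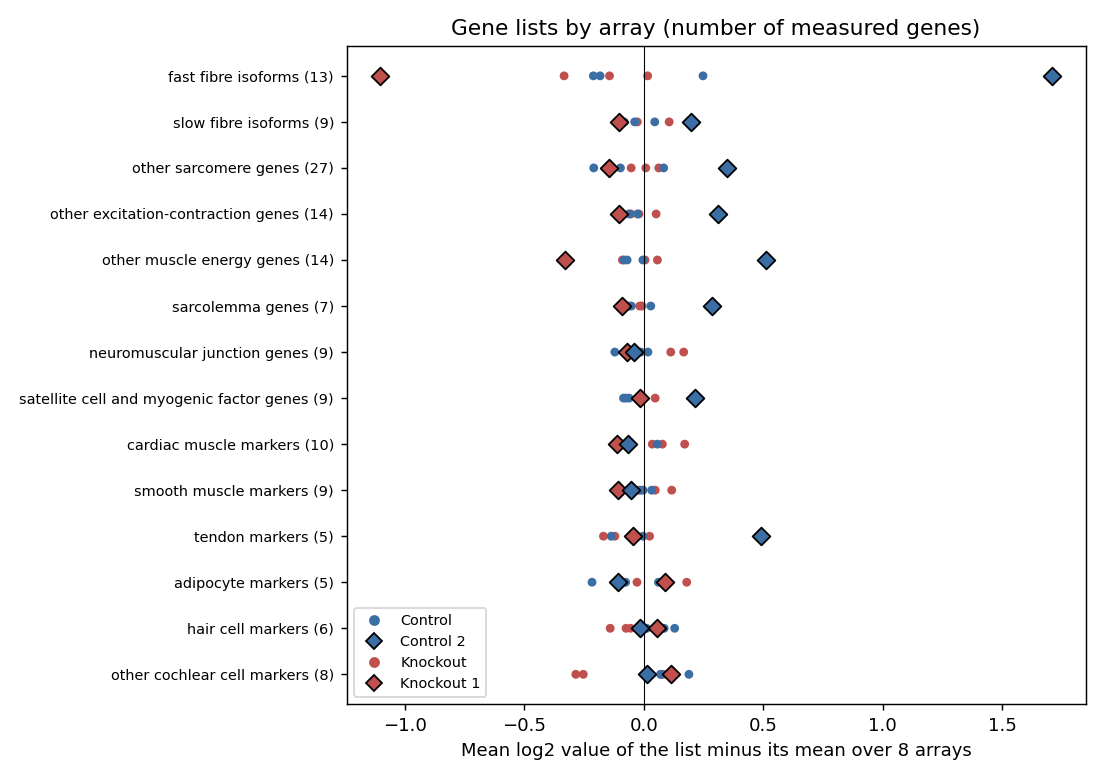
Mean log2 level of each gene list in the 8 arrays, as the difference from the list's mean over the arrays, for the fast and slow isoforms and for other muscle and cell type lists; points are animals, and diamonds mark control replicate 2 and knockout replicate 1. Control replicate 2 lies furthest out in the fast isoforms, lies above the other animals by less in the tendon markers and in the other sarcomere, excitation-contraction, energy, membrane and satellite cell lists, and lies among them in the cardiac, smooth muscle, hair cell and cochlear lists.

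The genes outside the set whose profiles lay nearest to that of the fast isoforms were ranked by the root mean square distance, over the 8 arrays, from the mean fast profile after centring. Pvalb was nearest, at 0.201 log2 units, followed by Myot (myotilin, a Z-disc protein) at 0.221, Apobec2 (a deaminase relative found in muscle) at 0.241, Mlf1 at 0.26, Cox7a1 at 0.277, Cox8b at 0.323, Pgam2 at 0.329 and Calb1 at 0.329. The median distance over 23474 candidate features was 0.766, and that of the fast isoforms themselves was 0.321. Cox7a1 and Cox8b are the muscle forms of respiratory chain subunits, and Pgam2 is the muscle form of a glycolytic enzyme. All 8 were highest in control replicate 2 and lowest in knockout replicate 1, as the profile they were chosen to match was. Calb1, calbindin, a calcium buffer of neurons and hair cells rather than of muscle fibres, read 4.46, 5.18, 4.72 and 4.91 in knockout replicates 1 to 4 and 5.67, 6.64, 5.73 and 5.54 in control replicates 1 to 4. The groups did not overlap, which was so for 2.65% of all features in that direction. The Calb1 difference was -1.08 (SE 0.22, limma adjusted p = 0.226), and -0.71 without both extreme arrays, against -0.29 for Pvalb and -0.045 for Myot.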

How the data were processed

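The deposited values are log2 expression values per feature, made by the authors with RMA (background correction, quantile normalization and probe summary) in Affymetrix Expression Console, per the submitters' processing notes and the labels. The log2 scale was checked on the values. Total RNA was hybridised to Affymetrix Mouse Gene 2.0 ST arrays after WT PLUS labelling, per the labels' protocols. Not given in the sources used here were version, annotation release and build.

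Of 41345 features, the 23521 with exactly 1 symbol in the platform annotation were tested, while 1814 had several and 16010 none. Genotype was the only term of a limma fit (version 3.58.1, R 4.3.3; lmFit, eBayes with an intensity trend), with Benjamini-Hochberg adjustment over all 23521 features at 0.05. The SE beside a difference is limma's. Exact permutation tests ran over 70 assignments of 8 arrays. The fit was tested on simulated data. Alternatives were a replicate block, other variance models, array weights, features with a mean of at least 5, all features, median-centring, cyclic loess, the mean of a gene's features, leaving out each array, leaving out 2 extreme arrays, the slow list without Tpm3 and only the paired paralogs. No scan date was used.

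The members, the lists and the tests were chosen with earlier results of these data known. All members were named, with the 3 genes of the targeted cluster, the 2 genes of smallest p per other list (4 for sarcomere genes) and the 8 nearest profiles. Mir183 and Mir182 differed by -0.33 and 0.35 (adjusted p = 0.398 and 0.364). Promoter windows came from RefSeq (GRCm38.p6) by symbol, with 35 of 42 genes matched.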

Additional observations from a re-analysis of the deposited data

Results flagged for a closer look

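Single animals far from the other 3 of their group were looked for in 90 groups of 4 values (the 42 genes and the mean levels of all, fast and slow genes, in each group), by the gap to the nearest animal relative to the group's range, at Dixon's 95% critical value. Such gaps were found in 9 of the 90, or 10%, where chance gives about 1 in 20. The genes are not independent, so this share has no test. In control, replicate 2 lay far above the others at Mybpc1 (7.06), Actn2 (6.68), Myoz1 (6.84) and Eno3 (8.39). In knockout, replicate 1 lay far below the others at Tnni2 (5.97), Atp2a1 (5.45) and Mb (5.57). The remaining gaps were high values of other animals, in knockout replicate 3 at Myh3 (4.25) and in knockout replicate 2 at Tpm1 (7.32).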

How the results depend on the processing

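No gene of the set was called in any of the 18 alternatives to the limma fit. The fast median ran from -0.95 to -0.0011. The latter value, close to no difference, came without both extreme arrays, where 7 of 13 fast isoforms were lower. The count of genes lower in knockout ran from 22 to 39, with 39 after median-centring (63.2% of all features) and 37 after cyclic loess (57.3%). The median over the set was -0.0052 without both extreme arrays and -0.64 to -0.17 when each array was left out in turn; without control replicate 2 alone it was -0.17, with 29 of 42 lower against 49.0% of all features. The 11 genes at an unadjusted p under 0.05 became 4 without knockout replicate 1 and 7 without knockout replicate 3. Leaving out control replicate 1, 2 or 4, they became 19, 4 and 22. They became 4 with all features tested. The share of all features at that p is not given for these fits, so these counts cannot be set against it. That share was 14.3% in the main fit and 7.00% without both extreme arrays. The slow median, -0.031, turned to 0.0091 among features with a mean of at least 5 and to 0.066 without both arrays, and ran from -0.10 to 0.028 when each array was left out. The fast minus slow median difference, -0.69, ran from -0.87 to -0.067. Over all features, 3 calls became 1 with the whole table, 8 with array weights and between 1 and 21 when an array was left out (control replicate 1 for the lowest count, control replicate 3 for the highest). The Mir96 call was lost with the whole table and when control replicate 1 was left out. The median over all features ran from -0.069 to 0.049. The pair ratios have no value under the alternatives that change only the limma fit. The cause of these shifts was not tested.

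Signs of single genes turned with each array centred on its median at Myh7 (-0.074), Tpm3 (-0.014), Tnnc1 (-0.042), Lmod3 (-0.073), Ldb3 (-0.056), Ryr1 (-0.081); with cyclic loess at Myh7 (-0.084), Lmod3 (-0.11), Ldb3 (-0.030), Ryr1 (-0.028); with array weights at Ryr1 (-0.022); with the mean of a gene's features at Ryr1 (-0.053). Without both extreme arrays they turned at Myh1 (0.20), Myl3 (0.0075), Mybpc2 (0.046), Tnnt1 (0.074), Tnni2 (0.087), Tnnc1 (-0.019), Tnnc2 (0.038), Neb (0.069), Ttn (0.16), Myoz1 (0.17), Atp2a1 (0.069), Casq2 (0.089), Mb (0.10), Pgam2 (0.31), ratio Tnni2 and Tnni1 (0.16), ratio Tnnc2 and Tnnc1 (0.057). When each array was left out in turn, values crossed 0 at Myl3 from -0.10 to 0.039, Ryr1 from -0.044 to 0.060, Myh7 from -0.11 to 0.12, Tnnc1 from -0.0071 to 0.10, Lmod3 from -0.073 to 0.10, Tpm3 from -0.0092 to 0.14, Ldb3 from -0.072 to 0.23, Mybpc2 from -0.40 to 0.016, Tnnt1 from -0.10 to 0.043, Ttn from -0.88 to 0.017, Myoz1 from -0.52 to 0.054, Casq2 from -0.16 to 0.017, Pgam2 from -0.51 to 0.094.

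With the replicate number as a block (replicate block), 0 genes of the set were called and 23 had an unadjusted p under 0.05, with unchanged differences. The share of all features at that p is not given for this fit, so the 23 cannot be set against it. Over all tested features the numbers showed no clear pairing of the samples. Deviations of same-numbered arrays correlated at 0.057, 0.21, 0.21 and -0.29, and 1 of 4 knockout arrays correlated best with its own number. Averaged over the 13 fast isoforms, however, replicate 2 was the highest of its group in knockout (6.56) and in control (8.25). Over all 42 genes the highest knockout was replicate 4, at 6.05, and the highest control replicate 2, at 7.16. Whether the muscle genes share a factor by number was not tested.

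Dim features cannot be told from background here, and 4 animals a group limit what can be called.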
